A study of Arabidopsis thaliana with 6 samples.

Results

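Of 13513 probe sets that name a single Arabidopsis gene (13355 genes), 5 gave signals that were high together on the array of Col-0 replicate 3 and that of sid2.2 replicate 2. They were chosen by their own values. The mean signal over the 6 arrays had to exceed 100, which 7042 of these probe sets did, and the lower of the signals on those 2 arrays had to be at least 2 times the highest signal on the other 4. That quotient is called the gap here. BGLU28 and the ATG8 genes were left out by name, and none of their 8 probe sets reached a gap of 2. The genes are AT1G26580, AT1G27290, AT2G30930, AT1G01240 and AT2G36410. Each has a single probe set, and the gene tables used here give none of them a symbol or a function.

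The arrays came from whole rosettes of Arabidopsis thaliana. Wild type Col-0 was grown beside the sid2.2 mutant, which is mutated in ICS1, an enzyme of the main route to the defence hormone salicylic acid. All plants of both genotypes were kept on low sulfate (0.016 mM), without a sulfate-sufficient control, for 60 days with 8 h of light and 16 h of dark. In each of 3 cultures, months apart, 1 pool of more than 6 plants was taken per genotype, so replicate numbers are culture numbers and n = 3 arrays per genotype. ICS1 itself was not analysed here, so the mutant was not checked on its own transcript. In pooled rosettes, fewer cells of a type and less RNA per cell cannot be told apart.

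Rosette leaves that run short of sugar or of a nutrient are known to recycle their own contents. Autophagy, in which ATG8 is fixed to the membrane that encloses cell material, carries protein to the vacuole, and SnRK1, a kinase of energy shortage, shifts metabolism from synthesis to breakdown. Photosynthesis and cold-response transcripts also are known to follow the time of day and the temperature. The genes of these processes are given further on, after the 5 members themselves.

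No label sets the 2 arrays apart from the rest: they differ in both genotype and culture. Over 13059 probe sets with a mean signal above 100, they were the most alike of the 15 pairs of arrays (Pearson r of log2 signals 0.962), closer than either was to arrays of its own genotype (0.888 to 0.914 for Col-0 replicate 3 and 0.920 to 0.947 for sid2.2 replicate 2). The lead was very small: sid2.2 replicates 1 and 3 stood at 0.961 and Col-0 replicates 1 and 2 at 0.960. Col-0 replicate 3 was nearly as close to sid2.2 replicate 1 (0.957). These correlations are across probe sets, which are not independent. The word outlying holds less well for the array as a whole. The mean correlation with the other 5 arrays was 0.930 for Col-0 replicate 3 and 0.907 for sid2.2 replicate 2, while Col-0 replicate 2 had the lowest, 0.904. Technical readings were mixed: in order of value the 2 arrays were neighbours in 25S ribosomal RNA and median signal, but not in the actin ratio. A technical part in the pattern was not tested. The ratio of 3' over 5' actin signal was 4.81 on Col-0 replicate 3 and 6.51 on sid2.2 replicate 2, against 4.85 to 8.34 on the others, the 25S ribosomal RNA signal was 4178 and 3528 against 2760 to 6524, and the median signal was 151 and 150 against 131 to 162.

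AT1G26580 had the widest gap, 2.82. Its signal was 1007 on Col-0 replicate 3 and 980 on sid2.2 replicate 2, against 236 and 209 on the remaining arrays of Col-0 and 348 and 229 on the other sid2.2 arrays. Both high arrays thus gave nearly the same value although they came from different genotypes. Within Col-0, replicate 3 was 4.28 times replicate 1 and 4.82 times replicate 2. Within sid2.2, replicate 2 was 2.82 times replicate 1 and 4.29 times replicate 3.

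AT1G27290 followed with a gap of 2.31. Its signal was 2298 on Col-0 replicate 3 and 1941 on sid2.2 replicate 2. Replicates 1 and 2 of Col-0 read 752 and 345, and replicates 1 and 3 of sid2.2 read 841 and 624. It varied most among the 4 lower arrays, by 2.44-fold, with Col-0 replicate 2 the lowest.

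AT2G30930 had a gap of 2.12, with signals of 2114 on Col-0 replicate 3 and 1842 on sid2.2 replicate 2. The other Col-0 arrays gave 869 and 622, and the other sid2.2 arrays 601 and 860. It was the member whose 4 lower arrays lay closest together, within 1.45-fold.

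AT1G01240 was the brightest member, with a mean signal of 1455 and a gap of 2.06. It read 2421 on Col-0 replicate 3 and 2528 on sid2.2 replicate 2, the only member with the higher value in sid2.2. Its lower arrays gave 1065 and 741 for Col-0, then 1173 and 800 for sid2.2.

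AT2G36410 lay just inside the threshold, with a gap of 2.03. Its signals were 912 on Col-0 replicate 3 and 904 on sid2.2 replicate 2, a difference of 1.01-fold. Col-0 replicates 1 and 2 read 317 and 226, and sid2.2 replicates 1 and 3 read 394 and 445. Just outside the threshold were AT3G02340 at 1.998, AT5G40910 at 1.99 and AT3G27210 at 1.94. AT3G02340, for example, read 1005 and 1422 on the 2 high arrays against 423, 381, 503 and 498.

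**Figure D1:**
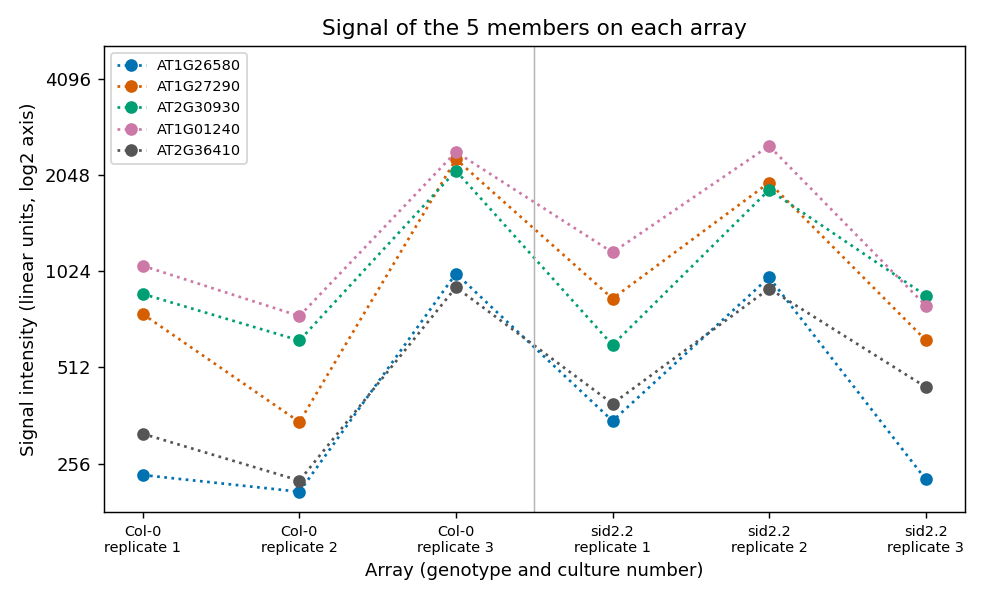
Signal intensity of the 5 members on each of the 6 arrays (log2 axis, linear units), 1 point per array, with dotted lines that only link the points of a gene. On every gene the points of Col-0 replicate 3 and sid2.2 replicate 2 lie above the other 4, by a gap of 2.03 to 2.82.

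The members were moderately to strongly expressed on this platform. Their mean signals, 501 to 1455, stood at the 55.5th to 83.7th percentile of the 7042 probe sets, and their lowest single value, 209, was far above the level that 95% of 27 bacterial control probe sets stay under on each array, 27.9 to 39.9. The 2 arrays differed from each other by 1.01-fold to 1.18-fold over the 5 genes. The rule capped the other 4 arrays and did not set their order directly. Col-0 replicate 2 was the lowest of them for 4 of 5 members, and sid2.2 replicate 1 the highest for 3. Among all 7042 probe sets these shares were 24.2% and 29.6%. Col-0 replicate 2 was also the array least correlated with Col-0 replicate 3 (0.888) and sid2.2 replicate 2 (0.836). Of the other 4, sid2.2 replicate 1 was the most correlated with them (0.957 and 0.947). The order is thus not independent of the choice of members and is a description only.

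By RefSeq's gene table (assembly TAIR10.1) AT1G26580, AT1G27290 and AT1G01240 lie on chromosome 1 and AT2G30930 and AT2G36410 on chromosome 2, and none of them is next to another member. Of the 20 protein-coding genes within 2 steps of a member, 9 had a single-gene probe set and 6 of those a mean signal above 100. The 1 of these with both arrays above the other 4 was AT1G27300, directly beside AT1G27290. Over all 7042 probe sets 18.8% had both arrays above the other 4, so nothing is read from that count. AT1G27300 read 943 on Col-0 replicate 3 and 942 on sid2.2 replicate 2, against 451, 353, 631 and 566 on Col-0 replicates 1 and 2 and sid2.2 replicates 1 and 3, a gap of 1.49. Probe positions were not used here, and whether the neighbouring probe sets read separate transcripts was not tested.

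A gap of 2 was rare: the 5 members are 0.071% of the 7042 probe sets, a share fixed by the rule and no result about them. The mirrored rule, with both arrays low, gave 31 probe sets. With any gap above 1 counted, 1322 probe sets (18.8%) were above all other 4 arrays and 1115 (15.8%) below them. At a gap of 1.5, and at each wider one plotted, fewer were high than low (81 and 157 at 1.5). Wide gaps were thus more often on the low side. Without Col-0 replicate 3 or without sid2.2 replicate 1 the rule gave 50 members, and without sid2.2 replicate 2 it gave 19.

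**Figure D2:**
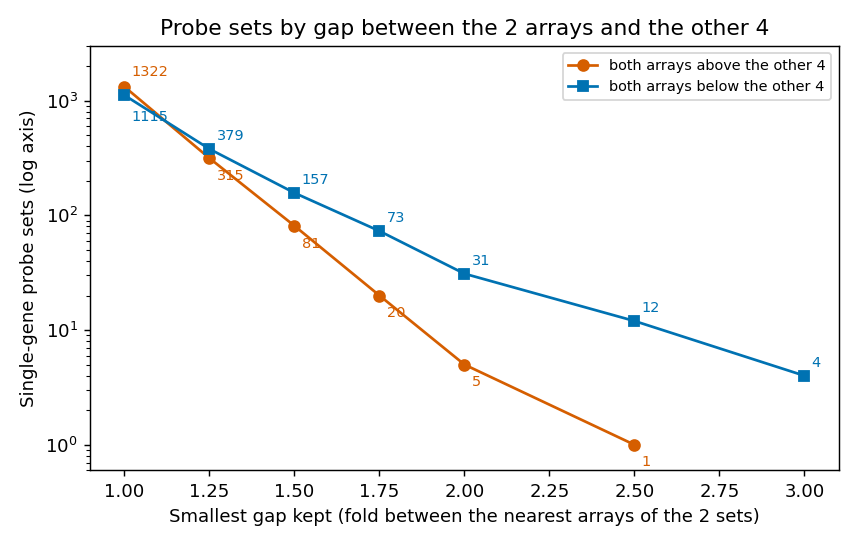
Number of single-gene probe sets (log axis) whose gap between the 2 arrays and the other 4 is at least the value on the x axis, for both arrays high (circles) and both low (squares). The high curve falls from 1322 to 5 at a gap of 2, where the low curve is at 31.

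The comparison of genotypes asks whether the mutant, which lacks the ICS1 route, differs from the wild type. For the members it can only be described: the rule put 1 high array into each genotype, so it set the spread within both, and neither the lack of a call nor the size of the error says anything about genotype. AT2G36410 had the largest value, a mean signal of 485 ± 373 in Col-0 against 581 ± 281 in sid2.2 (SD, n = 3; log2 difference 0.42, SE 0.52, limma adjusted p = 0.869). AT1G27290 read 1132 ± 1030 against 1135 ± 706 (0.26, SE 0.66, adjusted p = 0.938 by limma) and AT1G26580 484 ± 453 against 519 ± 404 (0.22, SE 0.68, adjusted p = 0.950 by limma). For AT1G01240 the means were 1409 ± 891 and 1500 ± 910 (0.10, SE 0.51), and for AT2G30930 they were 1202 ± 800 and 1101 ± 654 (-0.09, SE 0.52).

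As that spread fixes, 0 of the 5 members were called by limma, and 0 had an unadjusted p under 0.05. Over all 13648 probe sets tested 3 were called (0.022%), with 1010 at an unadjusted p under 0.05, and with the culture as a replicate block 0 were called, with 550 at an unadjusted p under 0.05. Without Col-0 replicate 3 the limma fit called 302, and without any other single array 0 (514 to 869 at an unadjusted p under 0.05). The members' median log2 difference was 0.22, against -0.0051 over all probe sets. Within a culture the sign followed the high array: the differences were 1.57 to 2.49 in culture 2, which holds sid2.2 replicate 2, and -2.14 to -1.04 in culture 3, which holds Col-0 replicate 3. In culture 1, which holds neither, they were -0.53 to 0.56. The values in cultures 2 and 3 come from the arrays that chose the members and support nothing.

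The 4 arrays that are not high were also used by the rule, which capped them, so their values are a description too. On them limma called 235 of the 13648 probe sets (1.72%) and 0 of 5 members, with 0 of the 5 at an unadjusted p under 0.05. AT2G36410 had the largest difference, 0.64 (SE 0.30, adjusted p = 0.346 by limma), with Col-0 at 317 and 226 against sid2.2 at 394 and 445. With so few arrays per genotype, values that do not overlap are not rare, and nothing is read from them. AT1G27290 was at 0.51 (SE 0.36) and AT1G26580 at 0.35 (SE 0.32), while AT1G01240 was at 0.12 (SE 0.29) and AT2G30930 at -0.03 (SE 0.29).

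**Figure D3:**
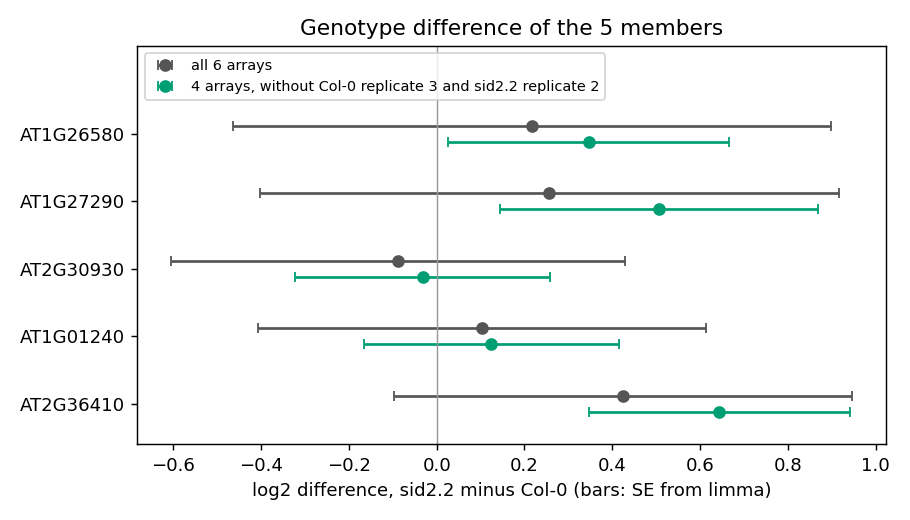
Log2 difference of sid2.2 minus Col-0 for each member, with bars for the standard error from limma, on all 6 arrays (grey) and on the 4 lower arrays alone (green). The wide bars on 6 arrays and the narrow ones on 4 follow from the rule, which placed 1 high array in each genotype; AT2G36410 has the largest difference in both fits.

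Because the 5 members carry no known function in the tables used here, functions were read from genes with the same pattern at a smaller gap. A gap of at least 1.5 was reached by 81 probe sets (1.15%), of which 78 remain without BGLU28, ATG8E and ATG8B. Only 10 of the 78 (12.8%) have a symbol other than the locus name, against 14.4% of the 7042. On the 78 the order of the lower arrays was again uneven: sid2.2 replicate 1 was the highest of the 4 for 53 (67.9%) and Col-0 replicate 2 the lowest for 39 (50%). As for the members, this order is not independent of the choice and is a description only.

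The genes with a symbol are too few to stand for the 78, and they are given 1 by 1. VPS20.1, a subunit of the ESCRT-III complex that buds vesicles into endosomes, had signals of 911 on Col-0 replicate 3 and 1079 on sid2.2 replicate 2, against 455, 254, 483 and 412 on the others (Col-0 replicates 1 and 2, then sid2.2 replicates 1 and 3). TET10, a tetraspanin of membranes, read 872 and 637 against 371, 394, 423 and 323. ACA.l, at locus AT1G13210, read 586 and 746 against 180, 229, 337 and 242. RefSeq names it an autoinhibited Ca2+/ATPase, but the name was not checked here and no function is read from it.

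THE1 encodes THESEUS1, a receptor kinase that monitors the cell wall. It read 724 on Col-0 replicate 3 and 570 on sid2.2 replicate 2. The lower arrays gave 289 and 303 for Col-0, then 163 and 164 for sid2.2 (log2 difference -0.85 on the 4 arrays, SE 0.30, limma adjusted p = 0.203). CSLC04, a glucan synthase of the wall polymer xyloglucan, read 1868 and 1765 against 1023, 1174, 1091 and 948. ATMAP65-6, a protein that binds microtubules, read 1788 and 1373 against 426, 665, 889 and 521, and TRM26, named for a TON1 recruiting motif, 331 and 339 against 196, 199, 138 and 138.

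DELTA-OAT, the ornithine aminotransferase of arginine breakdown, read 1448 and 1519 against 606, 581, 864 and 777 (log2 difference 0.47 on the 4 arrays, SE 0.25, limma adjusted p = 0.428). GLX2-4, of the glyoxalase 2 family, read 1232 and 1234 against 766, 681, 790 and 608. SAG101, a senescence-associated acyl hydrolase that also works in immune signalling, read 346 and 468 against 180, 220, 226 and 141. These 10 genes were picked by the gap and the presence of a symbol, after their values had been seen.

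**Figure D4:**
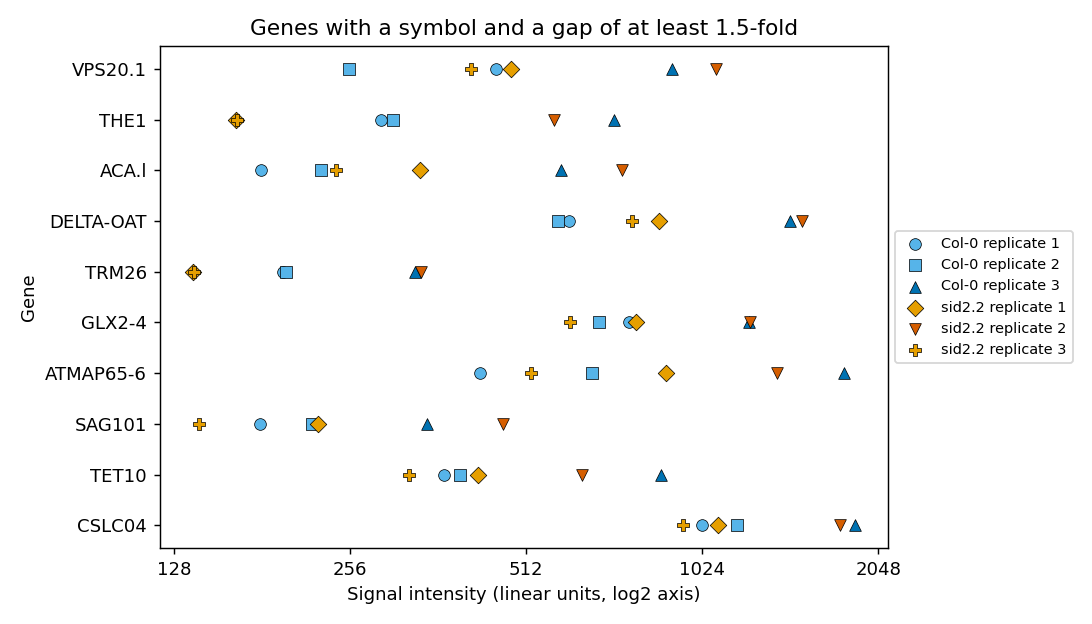
Signal intensity (log2 axis, linear units) of the 10 genes with a symbol and a gap of at least 1.5, 1 marker per array. In each row the dark triangles of Col-0 replicate 3 and sid2.2 replicate 2 stand to the right of the 4 lighter markers, by gaps of 1.5 to 1.89.

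The gap also fixes the genotype comparison of the 78 genes, since it puts 1 high array into each genotype, and 0 were called by limma on 6 arrays (lowest adjusted p = 0.741; 0 at an unadjusted p under 0.05). Leaving out 1 of the high arrays sets the direction by itself: 78 of 78 differences were above 0 without culture 3 and 4 of 78 without culture 2. On the 4 lower arrays alone 1 of 78 was called, next to the 1.72% of all probe sets given above, and nothing is read from it. This was AT4G28085 (log2 difference 2.06, SE 0.35, limma adjusted p = 0.0160). On these arrays AT4G28085 read 66.6 and 47.8 for Col-0, then 238 and 233 for sid2.2, and 429 and 551 on Col-0 replicate 3 and sid2.2 replicate 2.

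The 19 pathway lists held 78 genes with a single-gene probe set and a mean signal above 100, counted once each. None of them was a member, 23 (29.5%) had both arrays above the other 4 and 12 (15.4%) both below, next to 18.8% and 15.8% of all. The lists were chosen with earlier results of these data known, and no list was tested as a set.

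Autophagy genes other than ATG8 had both arrays high for 6 of 7 measured genes, with a median gap of 1.21 (0.764 over all 7042 probe sets). Of the 29 genes on that list 8 had a single-gene probe set, so most were not seen. ATG3, the enzyme that passes ATG8 to its membrane lipid, read 1934 on Col-0 replicate 3 and 1716 on sid2.2 replicate 2, against 1065, 1103, 1413 and 1076. AT2G37840 had the widest gap of the list, 1.34, with 463 and 458 against 219, 236, 342 and 259. The exception, AT5G50230, overlapped, at 516 and 479 against 381, 431, 516 and 280. Of the ATG8 genes, which the rule leaves out, ATG8E reached a gap of 1.77.

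Of the 31 genes on the energy and sugar starvation list 2 had a single-gene probe set, so most were not seen. Both were high on these arrays, with gaps of 1.45 for AKINBETA1 and 1.36 for BZIP53. Among all single-gene probe sets 18.8% had both arrays high. AKINBETA1, a regulatory subunit of the SnRK1 kinase, read 710 and 606 against 199, 174, 419 and 239. BZIP53, a transcription factor of low-energy responses, read 2642 and 2749 against 1557, 1336, 1943 and 1604. SDP1, the lipase that opens the breakdown of stored oil, read 469 and 467 against 130, 212, 316 and 222, a gap of 1.48, and 2 of 4 measured genes of fatty acid breakdown had both arrays high. The other was AT4G05160, the brightest, with a gap of 1.27, and AIM1 overlapped.

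Amino acid breakdown and senescence were mixed. Over all 7042 probe sets 18.8% had both arrays high, and the median gap was 0.764. Of 13 measured genes of amino acid catabolism 4 had both arrays high, with a median gap of 0.842. The brightest, ALDH6B2, an aldehyde dehydrogenase of valine breakdown, overlapped at 1736 and 2289 against 1163, 1184, 2002 and 1792, and ETFBETA had a gap of 0.75. ETFALPHA, which passes on electrons from branched-chain amino acid oxidation, read 1056 and 987 against 831, 625, 890 and 689. The gaps of the 4 high genes ran from 1.01 for MCCB, all but a tie, to 1.28 for AT4G20930. MGL, a methionine lyase, overlapped as well, at 1130 and 1694 against 333, 443, 1231 and 1589. In the senescence list 2 of 7 had both arrays high, SAG101 and GAMMA-VPE, a vacuolar processing protease, at 21830 and 21582 against 12813, 6796, 17551 and 16413. AT2G25625, NOL, WRKY53 and WRKY6 overlapped.

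On the low side stood nuclear photosynthesis genes, with both arrays below the other 4 for 5 of 7 and above for 0. PSAE-1, a subunit of photosystem I and the brightest of the list, was not among the 5: it read 17320 and 20090 against 20780, 19918, 18694 and 22623. LHCB4.1 and ATPC1, the next brightest, were low on both arrays by 1.12-fold and 1.15-fold. PRK, an enzyme of the Calvin cycle, read 5410 on Col-0 replicate 3 and 5038 on sid2.2 replicate 2 against 7071, 13492, 8804 and 9254. RCA, the activase of Rubisco and the 1 mesophyll marker measured, was bright on every array, 11743 and 15030 against 15691, 22785, 17358 and 24339. Of the abscisic acid and dehydration genes 2 of 3 had both arrays low, COR15A and COR15B, while COR47 overlapped at 2372 and 2801 against 1473, 3068, 1765 and 3853. COR15A, a cold-induced chloroplast protein, read 1420 and 949 against 15597, 14801, 3527 and 13794. GI, an evening gene of the clock and the only measured gene of its list, read 57.5 and 167 against 219, 375, 344 and 761. The part of these genes in the members' pattern was not tested.

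Sulfate-related genes, measured because all plants were short of sulfate, had both arrays high for 2 of 5, next to 18.8% of all 7042 probe sets. BGLU28, a thioglucosidase known as a marker of sulfate shortage and left out by the rule, read 13807 and 14190.5 against 4701, 1256, 8079 and 7224. AT1G04770 read 5651 and 4632 against 3921, 3127, 2791 and 3983, a gap of only 1.16. SIR, the sulfite reductase, overlapped at 1280 and 1390 against 896, 1487, 1222 and 1719.

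For the remaining lists the shares over all 7042 probe sets were 18.8% with both arrays high and 15.8% with both low. Both arrays were high for 1 of 5 measured genes of ubiquitin and the proteasome and 1 of 5 of oxidative stress. The same held for 1 of 4 of heat shock, 1 of 4 of starch and related sugars (with 1 low) and the 1 ethylene gene, EIN3. With so few genes per list nothing is read from these counts. Several of these genes were all but ties. The gap was 1.004 for EIN3, 1.0004 for AT5G07340 of heat shock and 1.008 for AT5G23540 of the proteasome. The starch gene, AT4G24450, had a gap of 1.23. Of the jasmonate genes 2 of 3 had both arrays low, the defensins PDF1.2 and PDF1.2b. The 2 arrays were far apart for PDF1.2b, at 26.3 and 513 against 513 to 1236, so that sid2.2 replicate 2 all but equalled Col-0 replicate 2. PDF1.2 read 17.2 and 176 against 249 to 666. For both defensins the Col-0 replicate 3 value was under that array's control level of 31.8. Whether their probe sets read separate transcripts was not tested. Of the anthocyanin genes 1 of 5 was low, CHIL, and the brightest, UGT78D2, overlapped. The brightest genes of the ubiquitin and heat shock lists, RPN12a and AT3G09440, overlapped, that of oxidative stress, AT5G64250, was high by 1.22-fold, and that of starch, APL3, was low by 1.18-fold. The 2 measured genes of salicylic acid and pathogen response overlapped, and no listed gene of nitrogen transport or phosphate starvation had a named single-gene probe set in the annotation used.

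**Figure D5:**
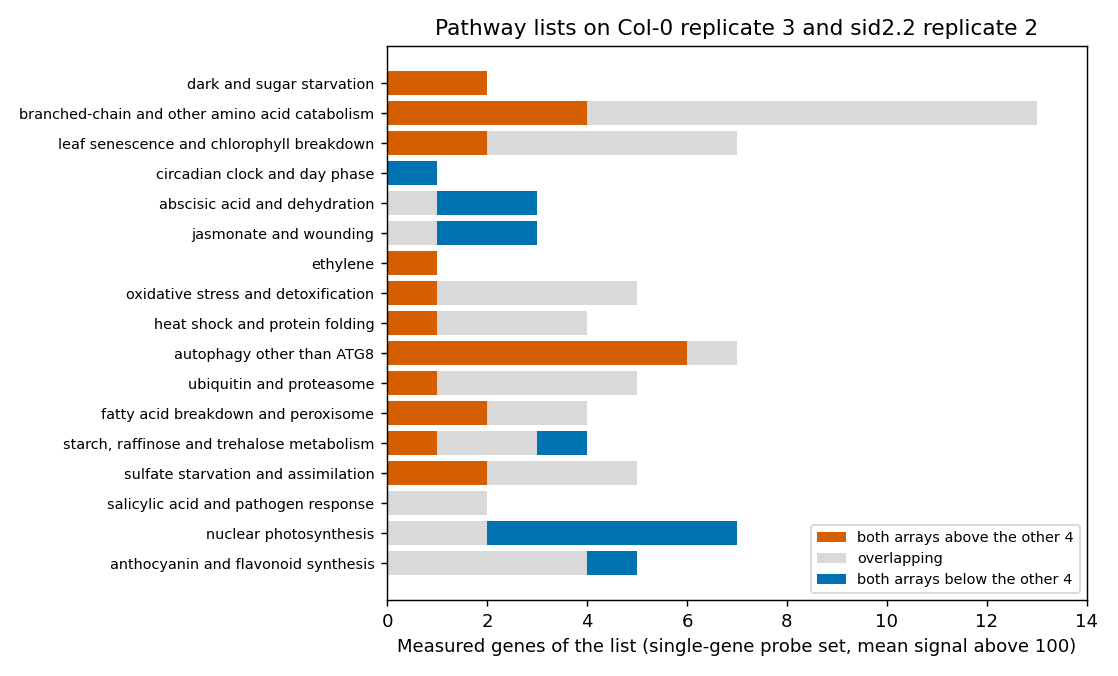
Number of measured genes of each pathway list with both arrays (Col-0 replicate 3 and sid2.2 replicate 2) above the other 4, overlapping with them, or below them. Autophagy other than ATG8 has 6 of 7 above and nuclear photosynthesis 5 of 7 below, next to 18.8% above and 15.8% below among all single-gene probe sets.

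Markers of other tissues were scarce. Of 9 root markers 4 had a single-gene probe set, and PYK10, a root beta-glucosidase, was the 1 with a mean above 100. It read 44.4 and 32.0 on Col-0 replicate 3 and sid2.2 replicate 2 against 83.8, 170, 232 and 115, and on these 2 arrays stood just above the control levels of 31.8 and 27.9. The other 3 were dim and mixed. AT4G11290 read 4.64 and 5.89 against 7.37 to 155, AT4G30170 33.3 and 5.37 against 14.1 to 54.0, and AT5G17820 5.61 and 31.8 against 1.59 to 22.9. The part of root material in the members' pattern was not tested. The single flower marker stayed at 3.39 to 23.5, under that level on every array, and no seed or stem marker had a named single-gene probe set.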

How the data were processed

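The deposited table holds MAS5 signal intensity per probe set on a linear scale, per the submitters' processing notes. Its version was not given in the sources used here. On every array the mean without the highest and lowest 2% of signals lay at 500.05, so the values are relative to a common level. Targets came from 200 ng of total RNA per pool, per the labels. Of 22810 probe sets (64 controls), 13513 had 1 gene name in the platform annotation, 503 several and 8794 none; symbols were updated from RefSeq (TAIR10.1). The number of arrays limits the precision.

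Members and lists were chosen with earlier results of these data known. The genotype comparison used limma (3.58.1, R 4.3.3; log2 signal, lmFit, eBayes with trend, two-sided) after the controls and the dimmest 40% of probe sets were left out, with Benjamini-Hochberg adjustment over 13648 and a call at 0.05. Nothing says whether a pool was remeasured, so p-values cover the spread between pools only. A culture number marks a shared batch and was used as an alternative block; deviations of same-numbered arrays correlated at -0.03, -0.53 and -0.57.

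Named by rule are all members, the genes next to the threshold, members on a list, called members and up to 3 of the brightest genes of each list, of which those not printed stand in the counts. Genes with a symbol at a gap of 1.5, AT4G28085 and other list examples were chosen after their values were seen. Alternatives changed the scaling, filter, pseudocount, block, thresholds and arrays. The planned promoter motifs were not analysed here.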

Additional observations from a re-analysis of the deposited data

How the results depend on the processing

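The list of members depends on its threshold and on single arrays. The count of 5 became 78 at a gap of 1.5, 0 at a gap of 3 and 14 with unnamed probe sets counted too; leaving out 1 array gave 6 to 50, with 50 without Col-0 replicate 3 or without sid2.2 replicate 1, and 19 without sid2.2 replicate 2. Quantile normalization and median centring also gave 5 each, of which 4 and 2 were among the members. AT1G26580 and AT1G27290 kept a gap above 2 under both. AT2G36410 dropped to 1.89 and 1.97, and with median centring AT1G01240 was at 1.97 and AT2G30930 at 1.84.

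No member was called under any of 16 alternatives (limma adjusted p from 0.100 to 0.999), though 4 of 5 had an unadjusted p under 0.05 without culture 3 and 1 without Col-0 replicate 3, settings that leave the high array of sid2.2 alone. Over all probe sets the 3 calls became 1 with quantile normalization and without the trend, 5 with a pseudocount of 16, and 0 without the filter, with the culture as a replicate block, without culture 1 and without culture 2. They were 729 without culture 3, 235 with both high arrays left out, and 0 to 302 without 1 array, with 302 without Col-0 replicate 3. The members' median difference of 0.22 was -0.79 without culture 2, 1.16 without culture 3 and -0.36 to 0.95 without 1 array.

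Signs turned, as each genotype holds 1 high array. Without culture 2 the differences were -0.79 for AT1G26580, -0.73 for AT1G01240, -0.36 for AT2G36410 and -0.86 for AT1G27290. AT2G30930 was at 0.13 without culture 1 and 0.52 without culture 3. Without 1 array the range was -0.38 to 0.95 for AT1G26580, -0.36 to 0.59 for AT1G01240, -0.39 to 0.98 for AT1G27290 and -0.54 to 0.42 for AT2G30930. The planned motif window was not run, as no promoter sequence was used here.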

Other observations

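Probe sets without a gene name showed the same pattern. Of 14 probe sets with a mean signal above 100 and a gap of at least 2, 9 have no gene name in the annotation used. Among all 13059 probe sets with such a mean only 7042 name a single gene, so nothing is read from that count. The widest gap of all, 5.35, belonged to a probe set with signals of 492 on Col-0 replicate 3 and 565 on sid2.2 replicate 2 against 79.1, 46.8, 91.9 and 76.5 on Col-0 replicates 1 and 2 and sid2.2 replicates 1 and 3. The next among them had a gap of 2.52 and signals of 798 and 607 against 174, 180, 241 and 179.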
